A study of Mus musculus with 6 samples.

Results

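The transcripts of 10 enzymes of the cyclooxygenase and lipoxygenase pathways were followed in mouse skin tumours labelled as lacking or carrying P2ry6, the gene of a cell-surface receptor that responds to the nucleotide UDP. The members were chosen by gene name: the cyclooxygenases Ptgs1 and Ptgs2, the prostaglandin E synthase Ptges, the prostaglandin-degrading dehydrogenase Hpgd, and the lipoxygenases Alox5, Alox8, Alox12, Alox12b, Aloxe3 and Alox15. All 10 were on the array, with 14 probes, and 9 of them were among the 19752 features tested. RNA was measured on 6 one-colour Agilent arrays, from 3 tumours labelled P2ry6-/- (KO) and 3 labelled P2ry6+/+ (WT), all from male mice. Both genotypes carried the same treatment: 195 nmol of the mutagen DMBA once on the shaved back, then 16 nmol of the phorbol ester TPA, a tumour promoter, 2 times a week up to week 22. No skin without DMBA and TPA was analysed here, so each value compares tumours with tumours. The labels do not give the strain, the age, the part of P2ry6 removed or whether each tumour came from its own mouse, and p-values therefore measure the spread between these samples, which may be technical.

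Cyclooxygenases turn arachidonic acid, released from membranes by phospholipases A2, into the common precursor of the prostaglandins and thromboxane, and terminal synthases such as Ptges finish each product. Lipoxygenases oxidise the same fatty acid, or linoleate bound in skin ceramides, at a defined carbon, and lead to leukotrienes, hydroxy fatty acids and the lipid layer of the skin barrier. In mouse skin, phorbol esters are known to induce Ptgs2 and Alox8, and Alox12b and Aloxe3 act in sequence on the acylceramides of the outer epidermis.

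The P2ry6 transcript was no lower in labelled KO than in labelled WT tumours. Its brighter probe had log2 values of 0.57, 0.70 and 0.45 in labelled KO tumours 1, 2 and 3, against 0.38, 0.33 and -0.21 in labelled WT tumours 1, 2 and 3, relative to each array's 75th percentile of signal. Its other probe had -0.95, -0.70 and -0.45 in labelled KO tumours, against -0.93, -1.14 and -1.65 in labelled WT tumours, and all 6 arrays detected both well above background. The removed part of the gene is not given, and a probe outside it would check nothing. Every direction below rests on the labels. All 8 basal keratinocyte markers were above background in every tumour, and their signals, summed relative to the 75th percentile, came to 1770 to 2140 in labelled KO tumours and 1750 to 1890 in labelled WT tumours. Sebaceous markers were lower in labelled KO tumours for 13 of 13 genes (median log2 difference -2.21). So were skeletal muscle markers for 11 of 11 tested (median -4.47), hair follicle markers for 10 of 11 (median -2.89) and adipocyte markers for 7 of 9 (median -3.62). The samples thus also differed in other tissue. Some muscle and adipocyte genes, among them the muscle gene at the median, were above background in 0 of 3 labelled KO tumours. They were tested through labelled WT tumours alone, and background sets part of their difference. Second probes of muscle genes did not all fall. In such bulk samples, fewer cells of a type and less RNA per cell cannot be told apart. Between 54.2% and 59.4% of spots were well above background on each array, and the 75th percentile was 277.1 to 299.6 units on labelled KO arrays and 321.7 to 367.9 units on labelled WT arrays. Labelled KO tumours 1, 2 and 3 lay in rows 2, 3 and 3 of the slide, and labelled WT tumours 1, 2 and 3 in rows 1, 1 and 2, so that row nearly follows genotype. Row 2 alone held both genotypes. A difference with slide row as a block therefore rests on labelled KO tumour 1 against labelled WT tumour 3.

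Promoters are shown for the members whose labelled KO and WT tumours did not overlap, Alox8, Ptges and Alox12, and for Ptgs2, the phorbol-inducible cyclooxygenase. RefSeq promoter windows (GRCm38.p6), from 250 bases before to 50 after the gene start, were found for 8 of the 10 members, all but Aloxe3 and Alox15. They lie at chr11:69197794-69198093 on the minus strand for Alox8, chr2:30903248-30903547 on the minus strand for Ptges, chr11:70255321-70255620 on the minus strand for Alox12 and chr1:150099781-150100080 on the plus strand for Ptgs2. Sequences run 5′ to 3′ along the gene, and capitals mark matches, on either strand, to 5 searched motifs.
Alox8: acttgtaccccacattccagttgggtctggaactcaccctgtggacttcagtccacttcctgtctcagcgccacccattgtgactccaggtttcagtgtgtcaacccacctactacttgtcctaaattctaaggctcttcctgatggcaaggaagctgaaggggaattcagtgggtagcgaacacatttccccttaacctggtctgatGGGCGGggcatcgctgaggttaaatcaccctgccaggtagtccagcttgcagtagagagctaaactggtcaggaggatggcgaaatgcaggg
Ptges: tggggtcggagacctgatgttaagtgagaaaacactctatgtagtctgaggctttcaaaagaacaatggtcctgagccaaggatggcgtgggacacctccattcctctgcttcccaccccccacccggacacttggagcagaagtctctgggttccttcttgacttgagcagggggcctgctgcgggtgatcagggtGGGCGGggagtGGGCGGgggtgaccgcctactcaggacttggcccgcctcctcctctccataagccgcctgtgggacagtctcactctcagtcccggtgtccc
Alox12: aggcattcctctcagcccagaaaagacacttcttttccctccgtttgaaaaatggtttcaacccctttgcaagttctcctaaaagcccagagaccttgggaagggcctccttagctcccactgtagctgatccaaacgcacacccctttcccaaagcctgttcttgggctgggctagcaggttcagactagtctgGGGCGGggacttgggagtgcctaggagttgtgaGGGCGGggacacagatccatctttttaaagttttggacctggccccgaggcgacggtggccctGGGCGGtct
Ptgs2: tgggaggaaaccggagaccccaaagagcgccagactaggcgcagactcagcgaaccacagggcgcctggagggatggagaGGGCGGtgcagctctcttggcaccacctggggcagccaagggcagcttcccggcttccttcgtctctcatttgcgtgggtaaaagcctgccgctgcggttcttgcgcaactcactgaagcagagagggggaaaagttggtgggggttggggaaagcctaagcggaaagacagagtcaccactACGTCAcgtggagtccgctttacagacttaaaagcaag
The motifs were the Sp1 box GGGCGG, the TATA box TATAAA, the AP-1 motif TGANTCA, the CRE half-site TGACGT and the NF-kB motif, and no 2 matches overlapped in these windows. Across all 32851 promoter windows, 35.7% held the Sp1 box, 13.6% the TATA box, 7.81% the AP-1 motif, 7.51% the CRE half-site and 0.411% the NF-kB motif. The Sp1 box was in 7 of the 8 members' windows, once in that of Alox8 at position -42, 2 times in that of Ptges at -53 and -42, and 3 times in that of Alox12 at -55, -22 and 42, counted from the gene start. Ptgs2 held it at -170 and was the one member with the CRE half-site, read on the reverse strand at 13. Ptgs1 held none of the 5. Hpgd was the one member with the TATA box letters, at 5, which is after the gene start. The AP-1 and NF-kB letters were in none of the 8 windows. A match is a description of letters and not of binding.

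Of the 9 members tested, 5 were higher and 4 lower in labelled KO tumours, and 0 passed an adjusted p of 0.05 (limma, Benjamini-Hochberg over all features), against 0.162% of all features, or 32 of 19752. Adjusted p ran from 0.225 for Alox8 to 0.922 for Ptgs2. At an unadjusted p under 0.05 there were 4 members, Alox8, Alox5, Hpgd and Ptges, all higher, where 13.2% of all features passed. The 3 labelled KO tumours lay above all 3 labelled WT tumours for Alox8, Ptges and Alox12, where 12.1% of features did so, and below them for 0 members, where 7.36% of features did so. The median log2 difference, labelled KO minus labelled WT, was 0.42 over the 9 members and 0.017 over all features. The 4 at an unadjusted p under 0.05 became 1 without labelled KO replicate 2 or without labelled KO replicate 3. They became 2 without labelled WT replicate 1, without labelled WT replicate 3 or with slide column as a block. With slide row as a block, Alox8, Alox5, Hpgd and Ptges differed by 1.12, 0.62, 0.85 and 0.28, from labelled KO tumour 1 and labelled WT tumour 3 alone. The smallest p of an exact permutation test on 3 and 3 tumours is 0.1, which a member without overlap already has.

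**Figure D1:**
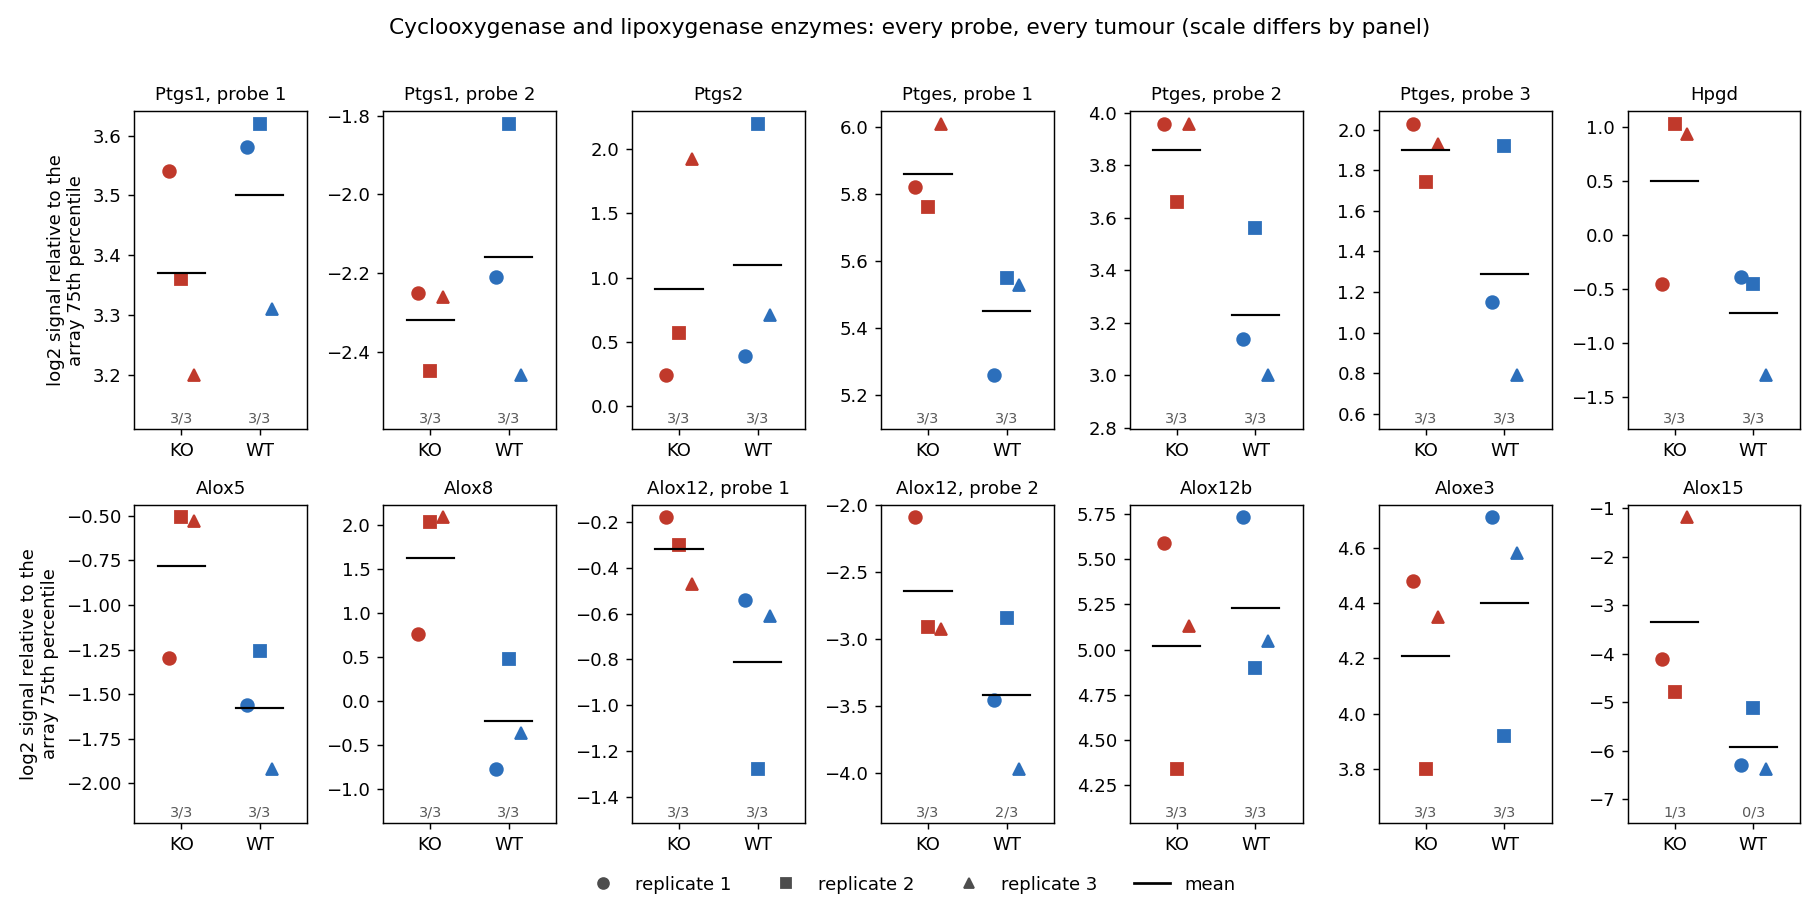
Log2 signal relative to the array's 75th percentile (vertical axis, scale set per panel) for every probe of the 10 enzymes, with a point per tumour, labelled KO in red left of labelled WT in blue, symbols for replicates, a bar for the mean, and below it the arrays on which the probe was well above background. Alox8 runs from 0.76 to 2.09 in labelled KO tumours and from -0.77 to 0.48 in labelled WT tumours. Ptgs2 spreads more widely within each genotype, from 0.24 to 1.92 in labelled KO tumours and from 0.39 to 2.20 in labelled WT tumours.

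The cyclooxygenases differed by less than their spread. Ptgs2, the inducible cyclooxygenase (probe at chr1:151954744-151954803, mm9), had log2 values of 0.24, 0.57 and 1.92 in labelled KO tumours, against 0.39, 2.20 and 0.71 in labelled WT tumours. One tumour of each genotype, labelled KO tumour 3 and labelled WT tumour 2, was high, and the groups overlapped. The means were 0.91 ± 0.89 and 1.1 ± 0.96 (SD, n = 3 each), a difference of -0.19 with a 95% confidence interval of -1.62 to 1.24 (adjusted p = 0.922, limma). Within a genotype, Ptgs2 signal varied 3.2-fold among labelled KO tumours and 3.49-fold among labelled WT tumours. Set within slide columns, the difference was -1.79 in column 1 and 1.37 in column 2, and its sign also turned when labelled KO replicate 1 (0.14) or labelled WT replicate 2 (0.36) was left out and with array weights (0.44). The interval holds a 2-fold difference in either direction. Over the 6 arrays the named features most like Ptgs2, of 15155 searched, were Tnfsf9, Tes and Ttll5, with Pearson r of 0.9802, 0.98 and 0.9763, as a description of the best matches on 6 shared arrays.

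Ptgs1, the constitutive cyclooxygenase, was nearly level. Its brighter probe (chr2:36107644-36107703, mm9) had 3.54, 3.36 and 3.20 in labelled KO tumours, against 3.58, 3.62 and 3.31 in labelled WT tumours, and the groups overlapped. The difference was -0.14, with a confidence interval of -0.54 to 0.27 that leaves out a 2-fold change in either direction (adjusted p = 0.77, limma); with slide row as a block it was 0.23. A second probe, against another transcript of the gene (chr2:36096929-36096988), differed by -0.15.

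Ptges, the inducible synthase that makes prostaglandin E2 from the cyclooxygenase product, was a little higher in every labelled KO tumour on its brightest probe (chr2:30744995-30745054, minus strand, mm9). That probe had 5.82, 5.76 and 6.01 in labelled KO tumours, against 5.26, 5.55 and 5.53 in labelled WT tumours. The means were 5.86 ± 0.13 and 5.45 ± 0.16 (SD, n = 3 each), a difference of 0.42, or 1.33-fold, that did not pass (SE 0.16, adjusted p = 0.35, limma). The second probe (chr2:30747838-30747897) had 3.96, 3.66 and 3.96 in labelled KO tumours, against 3.14, 3.56 and 3.00 in labelled WT tumours, a difference of 0.63 without overlap. The third (chr2:30748214-30748273) differed by 0.61, with overlap through labelled WT tumour 2 at 1.92. All 3 probes thus leaned the same way. On the brightest one the difference was 0.24 in slide column 1, 0.61 in column 2 and 0.28 in row 2, the row that holds both genotypes.

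Hpgd, which inactivates prostaglandins by oxidising their 15-hydroxyl group, also leaned upward. Its values (chr8:58799399-58799458, mm9) were -0.46, 1.03 and 0.93 in labelled KO tumours, against -0.39, -0.46 and -1.30 in labelled WT tumours. Labelled KO tumours 2 and 3 were clearly above all labelled WT tumours, and labelled KO tumour 1 lay among them. The means were 0.50 ± 0.83 and -0.72 ± 0.51 (SD, n = 3 each), a difference of 1.22, or 2.33-fold (SE 0.45, adjusted p = 0.339, limma). It was 0.74 and 1.78 in slide columns 1 and 2 and 0.85 in row 2. Ptges and Hpgd, of which the first makes prostaglandin E2 and the second removes it, were thus both higher on average in labelled KO tumours, neither past the threshold. The prostaglandin E synthases Ptges2 and Ptges3 leaned the other way, at -0.40 and -0.37 (adjusted p = 0.357 and 0.558, limma). Ptges3 was named after its value was seen and was not followed over the alternatives.

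Alox8 showed the largest difference of the 9 tested members. It encodes the mouse 8S-lipoxygenase, which in mouse skin is known for its appearance after phorbol ester. Its values (chr11:68997931-68997989, minus strand, mm9) were 0.76, 2.04 and 2.09 in labelled KO tumours, against -0.77, 0.48 and -0.36 in labelled WT tumours. The groups did not overlap, although labelled KO tumour 1 and labelled WT tumour 2 came close. The means were 1.63 ± 0.76 and -0.22 ± 0.63 (SD, n = 3 each), a difference of 1.85, or 3.6-fold, with a confidence interval of 0.75 to 2.95 (SE 0.46, unadjusted p = 0.00559, adjusted p = 0.225, limma). Within the slide the difference was 0.93 in column 1, 2.66 in column 2 and 1.12 in row 2. Over 18 alternatives it ran from 1.12, with slide row as a block, to 2.31, and the smallest adjusted p was 0.0714 (limma with array weights). In the other 17 alternatives, slide row left aside, the unadjusted p was under 0.05 (limma). Cornifying keratinocyte markers were higher in labelled KO tumours for 11 of 11 tested (median 0.60). Their mean log2 level was 5.65, 5.76 and 5.32 in labelled KO tumours, against 4.96, 5.27 and 4.46 in labelled WT tumours. Alox12b and Aloxe3, which act in the outer epidermis, leaned the other way, at -0.21 and -0.19. The part of cornifying cells in the Alox8 difference was not tested.

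**Figure D2:**
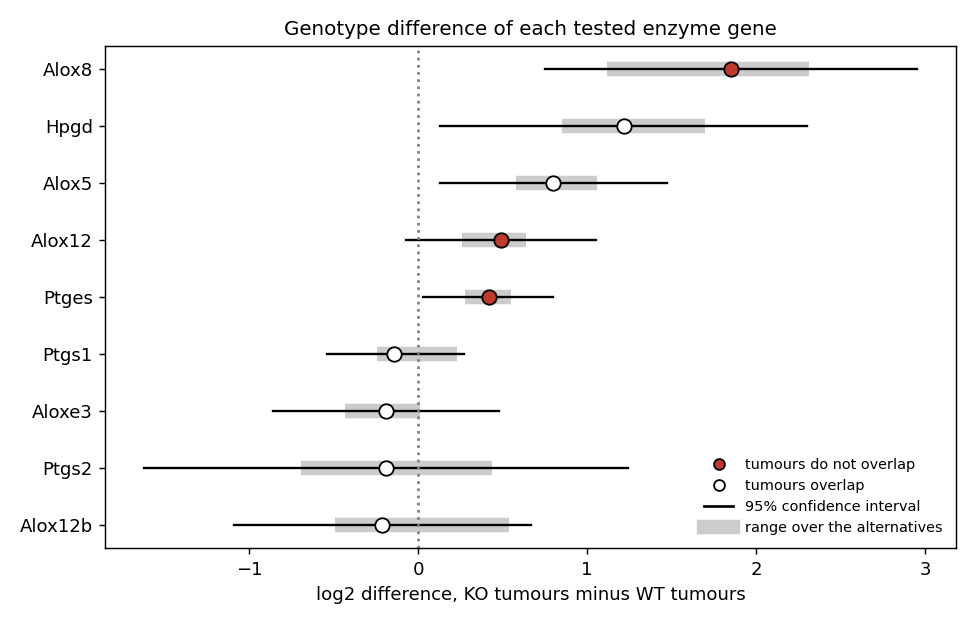
Log2 difference, labelled KO minus labelled WT tumours (horizontal axis), for the 9 tested enzymes (vertical axis), with 95% confidence intervals as lines, the range over 18 alternatives as grey bars, and filled points where the tumours do not overlap. Alox8 at 1.85 lies farthest from 0, and Ptgs1, Aloxe3, Ptgs2 and Alox12b lie just below it.

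Alox5 makes leukotriene precursors and is known mainly from myeloid cells and mast cells. Its values (chr6:116360326-116360385, minus strand, mm9) were -1.30, -0.51 and -0.53 in labelled KO tumours, against -1.56, -1.26 and -1.92 in labelled WT tumours. Only labelled KO tumour 1 lay within the labelled WT range, just under labelled WT tumour 2. The means were -0.78 ± 0.45 and -1.58 ± 0.33 (SD, n = 3 each), a difference of 0.80, or 1.74-fold (SE 0.28, adjusted p = 0.318, limma), and it was 0.36 and 1.21 in slide columns 1 and 2 and 0.62 in row 2. Labelled KO tumour 1 was the lowest of its group for Hpgd, Alox8 and Alox5 alike.

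Alox12 encodes the 12S-lipoxygenase first known from platelets and also made in epidermis. Its brighter probe (chr11:70055715-70055774, minus strand, mm9) had -0.18, -0.30 and -0.47 in labelled KO tumours, against -0.54, -1.28 and -0.61 in labelled WT tumours. The groups did not overlap, by a margin of less than 0.1 between labelled KO tumour 3 and labelled WT tumour 1, and labelled WT tumour 2 was the low one. The difference was 0.49, or 1.41-fold, with an interval of -0.07 to 1.05 (adjusted p = 0.43, limma); it was 1.04 in slide column 1, which holds labelled WT tumour 2, and 0.10 in column 2. The dimmer probe (chr11:70063629-70063688) differed by 0.78 with overlap and was well above background in 2 of 3 labelled WT tumours. Of the platelet markers, 5 of 8 were tested and 4 of those 5 were lower in labelled KO tumours, with sums of 1.56 to 7.70 in labelled KO tumours and 3.19 to 7.25 in labelled WT tumours.

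The barrier lipoxygenases differed by less than their spread. Alox12b, the 12R-lipoxygenase that starts the oxidation of skin ceramides and whose loss causes ichthyosis in humans, had 5.59, 4.34 and 5.13 in labelled KO tumours, against 5.73, 4.90 and 5.05 in labelled WT tumours (chr11:68983186-68983245, mm9). Aloxe3, which rearranges the hydroperoxide that Alox12b makes, had 4.48, 3.80 and 4.35 in labelled KO tumours, against 4.71, 3.92 and 4.58 in labelled WT tumours (chr11:68962557-68962616, mm9). In both genes tumour 2 was the lowest of each genotype and the groups overlapped. The difference was -0.21 for Alox12b, with an interval of -1.09 to 0.67 (adjusted p = 0.851, limma), and -0.19 for Aloxe3, with an interval of -0.86 to 0.48 (adjusted p = 0.814, limma). Alox12b turned to 0.13 without labelled KO replicate 2, to 0.04 without labelled WT replicate 1 and to 0.54 with slide row as a block, and Aloxe3 to 0.01 without labelled KO replicate 2. In the RefSeq annotation Aloxe3, Alox12b and Alox8 follow each other on chromosome 11 with 0 protein-coding genes between them, so Alox8 adjoins Alox12b. Whether Alox8 differed more than its neighbours was not tested. The named features most like Alox12b over the 6 arrays were Ufd1, Nfrkb and 1810053B23Rik, with Pearson r of 0.9916, 0.9893 and 0.9893, again as a description.

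Alox15, the mouse 12/15-lipoxygenase known from macrophages and, in humans, eosinophils, was detected in a single tumour. Its probe, shown because the detection rests on it alone, covers 225 bases of genome with 60 bases of sequence, at chr11:70159115-70159339 on the minus strand (mm9).
Alox15 probe: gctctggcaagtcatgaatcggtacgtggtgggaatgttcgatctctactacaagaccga
The processed signal was 17.4, 10.9 and 121.8 units in labelled KO tumours, against 4.33, 10.6 and 3.86 units in labelled WT tumours. It was well above background in labelled KO tumour 3 and in no other tumour, so it was not among the features tested. The dimmest signals that count as above background were 21.4 and 19.9 units on the arrays of labelled KO tumours 1 and 2. Those tumours were thus undetected too, and no fold difference between the genotypes is given. Of the eosinophil markers, 5 of 8, Siglecf, Epx, Prg2, Prg3 and Il5ra, were also too dim to be tested, and the list's sum was 0.589 to 1.14 in labelled KO tumours and 0.521 to 1.25 in labelled WT tumours.

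Around the members, 78 genes in 6 lists cover the rest of eicosanoid and skin-lipid metabolism, of which 63 were tested and 0 passed the adjusted threshold (limma). At an unadjusted p under 0.05, 10 were higher and 5 lower in labelled KO tumours, and the tumours did not overlap for 12 higher and 6 lower genes, against the 13.2%, 12.1% and 7.36% of all features given above. The difference of each gene named from these lists kept its direction in all alternatives that gave it a value, except those of Ptger4, Ptgfr and Tbxa2r.

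The leukotriene partners of Alox5 leaned upward. Of 9 tested genes of 12, 6 were higher and 3 lower, with 4 higher at an unadjusted p under 0.05 and 0 lower, and a median of 0.48. Alox5ap, which hands arachidonic acid to Alox5, had 1.12, 1.60 and 1.38 in labelled KO tumours, against 0.50, 1.1 and -0.10 in labelled WT tumours. That is a difference of 0.87 (SE 0.32, adjusted p = 0.334, limma), and its second probe differed by 1.1. Ltc4s, the leukotriene C4 synthase, had 0.47, 1.02 and 0.74 in labelled KO tumours, against -0.02, 0.27 and -0.01 in labelled WT tumours, a difference of 0.66 (adjusted p = 0.265, limma). Dpep2, a dipeptidase that turns leukotriene D4 into E4, had -1.44, -0.87 and -1.51 in labelled KO tumours, against -2.08, -1.86 and -2.40 in labelled WT tumours, a difference of 0.84 (adjusted p = 0.255, limma). Ltb4r2, a leukotriene B4 receptor also found on keratinocytes, differed by 0.48 (adjusted p = 0.339, limma). In these 4 of the 9 tested genes the labelled KO tumours lay above every labelled WT tumour, where 12.1% of all features did so. The 4 were named for the smallest p in the list, and the margin was narrow for Alox5ap (1.12 against 1.1).

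**Figure D3:**
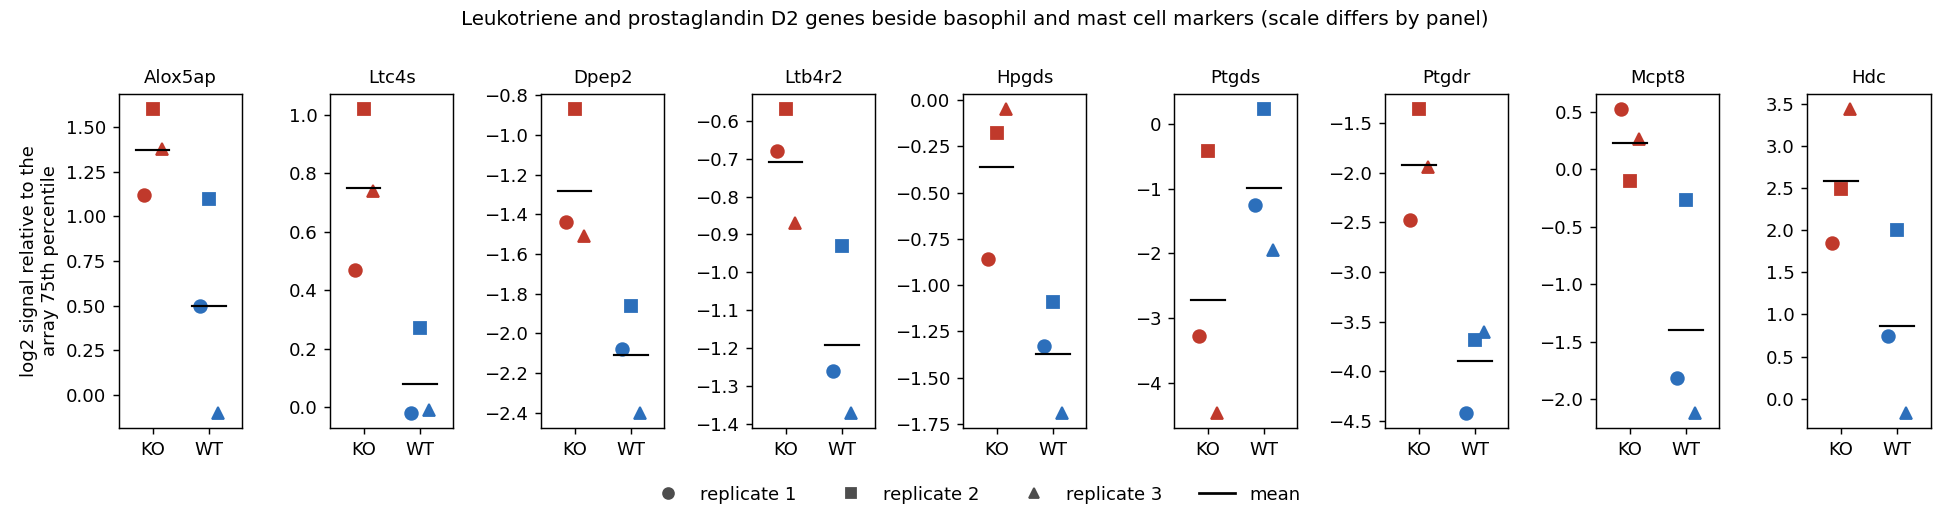
Log2 signal relative to the array's 75th percentile (vertical axis, scale set per panel), with a point per tumour, labelled KO in red left of labelled WT in blue, and a bar for the mean, for leukotriene and prostaglandin D2 genes and the basophil and mast cell markers Mcpt8 and Hdc. Ptgdr averages -1.92 in labelled KO tumours and -3.90 in labelled WT tumours, and the groups overlap in the panels of Ptgds and Hdc and in no other panel. Mcpt8 and Hdc were chosen after their values were seen, from a list of 10 markers of which 6 were higher and 4 lower.

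Genes of the prostaglandin D2 branch had the largest differences in the prostanoid lists, in both directions. Ptgdr, a receptor for prostaglandin D2, had -2.48, -1.36 and -1.94 in labelled KO tumours, against -4.42, -3.69 and -3.60 in labelled WT tumours, and was well above background in 2 of the 3 labelled WT tumours. Its difference of 1.98, or 3.94-fold, did not pass (SE 0.35, adjusted p = 0.141, limma), and over 17 alternatives it ran from 0.96 to 2.25. Hpgds, the hematopoietic prostaglandin D synthase, had -0.86, -0.18 and -0.05 in labelled KO tumours, against -1.33, -1.09 and -1.69 in labelled WT tumours, a difference of 1.01 (adjusted p = 0.237, limma), with 1.16 on its second probe. Ptgds, the lipocalin-type prostaglandin D synthase, had -3.28, -0.42 and -4.47 in labelled KO tumours, against -1.25, 0.23 and -1.95 in labelled WT tumours, with overlap. It was well above background in 1 of 3 labelled KO tumours, its difference was -1.73 (adjusted p = 0.54, limma; -0.86 without labelled KO replicate 3, -2.88 without labelled KO replicate 2), and it was named after its value was seen. Neither Ptgdr nor Ptgds was well above background in every tumour of the genotype where it was lower. With normexp background correction they differed by 0.96 and -0.76. The other receptors tested, Tbxa2r, Ptger4 and Ptgfr, differed by -0.36, -0.06 and 0.00. Tbxa2r was well above background in 2 of 3 labelled KO tumours, and Ptgfr was dim, at -3.77 to -3.25 over the 6 tumours. A further 5 of the 9, Ptger1, Ptger2, Ptger3, Ptgdr2 and Ptgir, were too dim to be tested.

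The terminal synthases and transporters were mixed, with 4 of 11 tested genes higher, 7 lower and a median of -0.37. Prxl2b, a prostaglandin F synthase, had 5.38, 5.34 and 4.92 in labelled KO tumours, against 4.65, 4.34 and 4.23 in labelled WT tumours, a difference of 0.81 (adjusted p = 0.221, limma). Cbr1, a carbonyl reductase that acts on prostaglandins, and Ptges2, a second prostaglandin E synthase, leaned the other way, at -0.56 and -0.40 (adjusted p = 0.342 and 0.357, limma), without overlap. Of 13 tested phospholipases A2, 10 were higher and 3 lower, with a median of 0.10. The cytosolic Pla2g4f and Pla2g4a differed by 0.68 and 0.56, and the calcium-independent Pla2g6 and the secreted Pla2g12a by -1.12 and -0.38 (adjusted p from 0.323 to 0.387, limma).

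**Figure D4:**
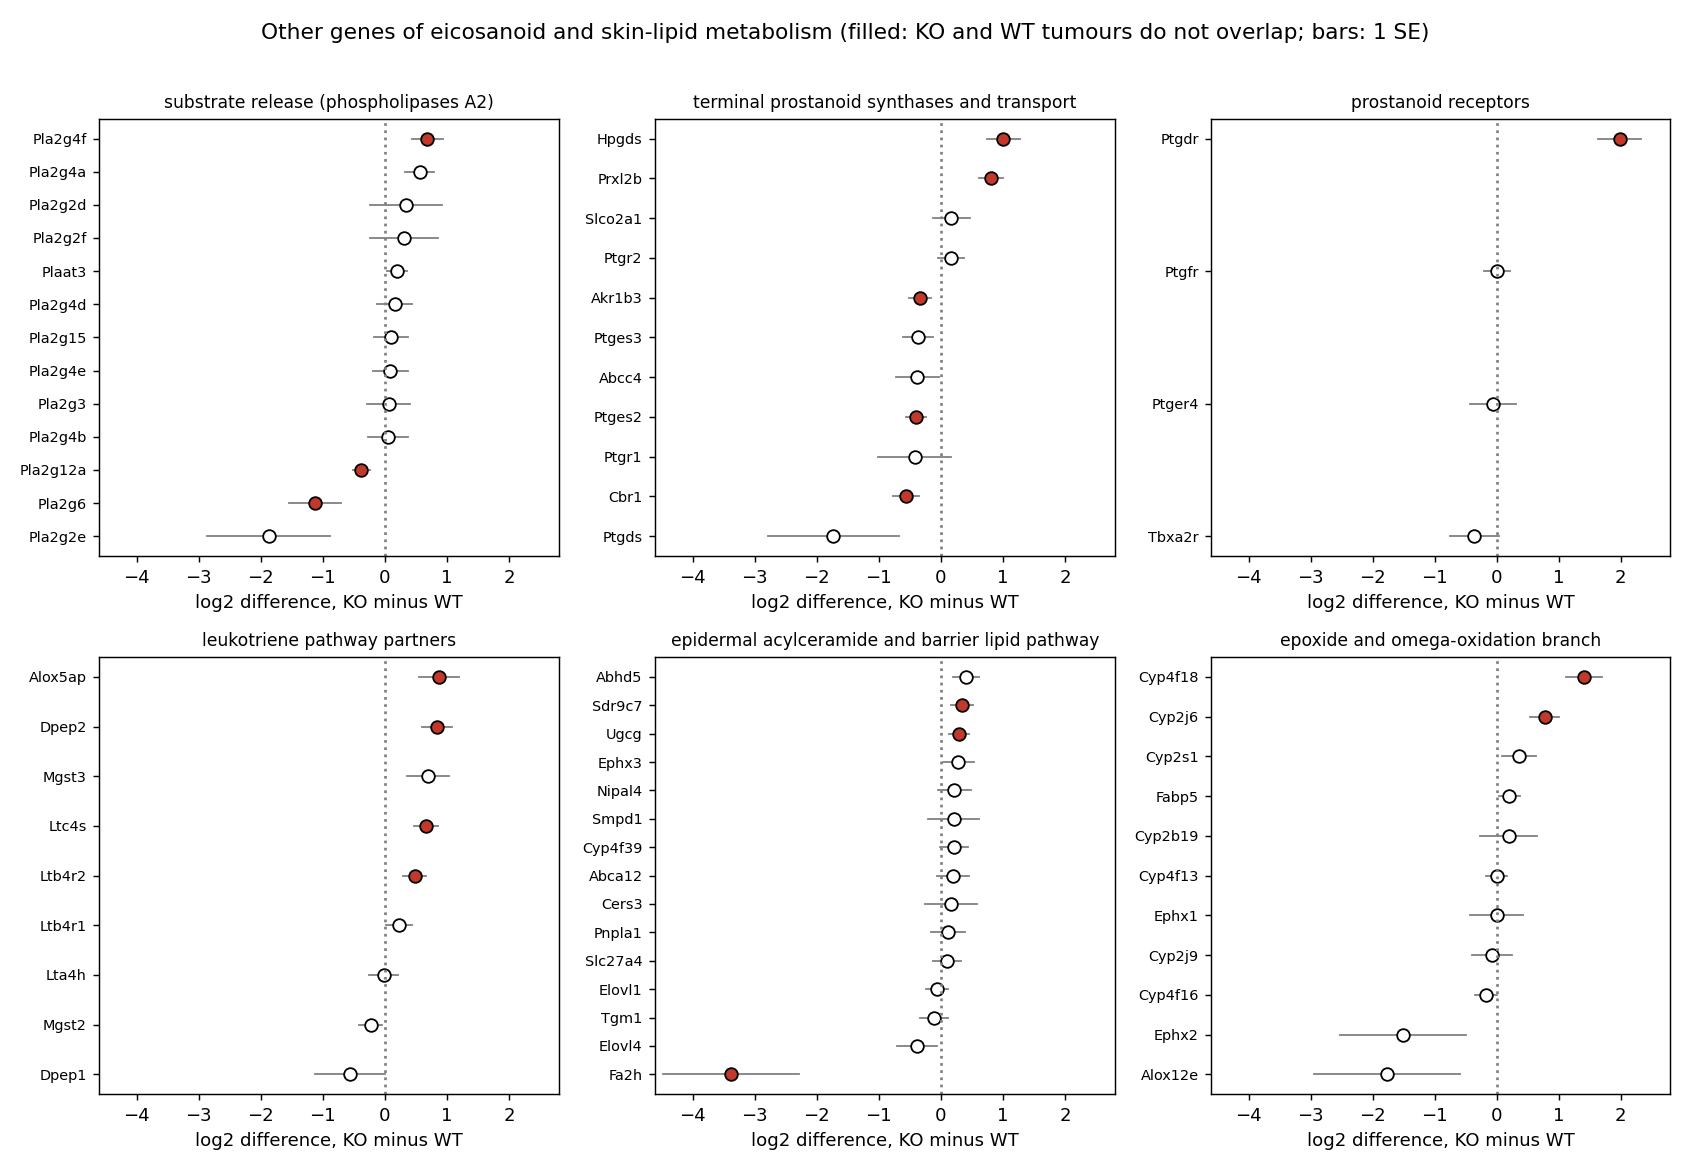
Log2 difference, labelled KO minus labelled WT tumours (horizontal axes), for the 63 tested genes of 6 lists around the members, with bars of 1 SE and filled points where the tumours do not overlap. The leukotriene list has 4 filled points, all above 0, and Fa2h at -3.38 lies farthest from 0.

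All 15 genes of the acylceramide and barrier list were tested, 11 higher and 4 lower in labelled KO tumours, with a median of 0.20. Abhd5, a lipase co-activator, differed by 0.41, Sdr9c7, a dehydrogenase that acts after Alox12b and Aloxe3, by 0.34, and Ugcg, which adds glucose to ceramide, by 0.30 (adjusted p from 0.464 to 0.489, limma). Fa2h, a fatty acid hydroxylase also used by sebaceous glands, had 0.38, 0.62 and -1.10 in labelled KO tumours, against 2.89, 5.79 and 1.37 in labelled WT tumours, a difference of -3.38 (adjusted p = 0.295, limma) that was -2.16 without labelled WT replicate 2 and -0.99 with slide row as a block. Sebaceous markers moved with it, with sums of 40.8 to 57.8 in labelled KO tumours and 92.5 to 372 in labelled WT tumours. Hair follicle markers, lower for 10 of 11 tested, had sums of 14.1 to 19.9 in labelled KO tumours and 16.2 to 310 in labelled WT tumours. The part of either in the Fa2h difference was not tested.

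In the epoxide and omega-oxidation list, 5 of 11 tested genes were higher and 6 lower, with a median of 0.00. Cyp4f18, known in mouse neutrophils for breaking down leukotriene B4, had 1.54, 2.11 and 2.55 in labelled KO tumours, against 0.87, 0.81 and 0.32 in labelled WT tumours. Its difference was 1.40, or 2.64-fold (SE 0.29, adjusted p = 0.187, limma), and its other probes gave 1.14 and 1.61. Cyp2j6, of the arachidonate epoxygenase family, differed by 0.77 (adjusted p = 0.269, limma). Ephx2, the soluble epoxide hydrolase, had -0.48, 0.65 and 0.23 in labelled KO tumours, against -0.41, 1.45 and 3.91 in labelled WT tumours. Labelled WT tumour 3 was far above the rest and the groups overlapped. The difference of -1.51 (adjusted p = 0.57, limma) was -0.38 without labelled WT replicate 3, -2.54 without labelled WT replicate 1, -0.68 with array weights and -4.38 with slide row as a block. Alox12e, the epidermal lipoxygenase that lies between Alox12 and Alox15 in the annotation, had 0.91, 3.31 and -1.31 in labelled KO tumours, against 3.21, 3.68 and 1.33 in labelled WT tumours, with overlap and a difference of -1.77 (adjusted p = 0.569, limma). It was -0.63 without labelled KO replicate 3, -2.95 without labelled KO replicate 2 and -0.43 with slide row as a block.

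Markers of the white blood cells that use these enzymes were read beside them. Neutrophil markers were higher in labelled KO tumours for 8 of 9 tested, with sums of 1070 to 1190 in labelled KO tumours and 641 to 891 in labelled WT tumours. Those sums are mostly S100a9 and S100a8, which activated keratinocytes also make, and the list's mean log2 level was 1.66, 2.17 and 2.58 in labelled KO tumours, against 1.60, 2.13 and 1.29 in labelled WT tumours, with overlap. Of 10 mast cell and basophil markers, 6 were higher and 4 lower, with overlapping sums of 12.1 to 25.2 in labelled KO tumours and 11.4 to 24.0 in labelled WT tumours. Within that list Mcpt8, a basophil protease, had 0.52, -0.10 and 0.26 in labelled KO tumours, against -1.82, -0.27 and -2.12 in labelled WT tumours, a difference of 1.63 (adjusted p = 0.267, limma). Hdc, which makes histamine, differed by 1.73 (adjusted p = 0.324, limma). Mcpt8 and Hdc were chosen after their values were seen. Mcpt4, a mast cell protease, differed by -0.28 (adjusted p = 0.841, limma) and turned sign in 3 of 18 alternatives. Macrophage markers were split, with 6 of 11 higher and sums of 40.4 to 43.4 in labelled KO tumours and 29.6 to 54.5 in labelled WT tumours. The part of any of these cells in the values of Alox5, Alox5ap, Ltc4s, Hpgds, Ptgdr and Cyp4f18 was not tested.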

How the data were processed

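RNA of 6 DMBA/TPA skin tumours, 3 labelled KO and 3 labelled WT for P2ry6, was labelled with Cy3 (0.2 µg per sample) and read on 1 slide of one-colour Agilent arrays. The authors deposited linear spot intensity which, per the file headers, was background-subtracted and detrended, with surrogate values for dim spots. Images were extracted with Agilent Feature Extraction (10.7.1.1), according to the submitters' processing notes. The deposited series table gives log2 values with equal medians of 4.969, which followed the log2 processed signal at r of 0.99945 to 0.99997; it was used as an alternative. Probe coordinates are mm9, per the file headers.

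Values used here were log2 processed signal less the 75th percentile of all non-control probes of the array, with flagged spots (68 to 184 per array) dropped and repeated spots averaged. A tested probe had to be well above background in all 3 tumours of either genotype (29723 of 56605), and the probe with the highest mean stood for a gene, leaving 19752 features. Of the probes, 32994 were named by accession, 10224 by symbol and 520 by synonym from RefSeq GRCm38.p6, and 12867 kept the array's name. Labelled KO minus labelled WT was fitted with limma 3.58.1 (R 4.3.3), two-sided, with Benjamini-Hochberg adjustment, and tested on simulated data. The number of arrays limits the precision. Alternatives were normexp with offset 50, quantile normalization, median centring, 2 other probe filters, gene means, trend and robust variance, array weights, the value table, slide column, slide row (added after the data were seen), the replicate number, and each tumour left out.

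The result of 1 list gene is not reported here. The members and gene lists were chosen with earlier results of these data known. All members with every probe are named, and of each pathway list up to 4 genes with the smallest p; other genes are said to be chosen after their values were seen. Of marker lists, sums, counts and up to 2 of the brightest genes are given.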

Additional observations from a re-analysis of the deposited data

How the results depend on the processing

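Of 162 values of the 9 tested members over 18 alternatives, 154 kept their direction, 8 turned, and 0 reached an adjusted p under 0.05 (limma). Alox8, Hpgd, Alox5, Ptges and Alox12 stayed higher in labelled KO tumours in all 18. Those that turned were Ptgs2 (-0.69 to 0.36 with each tumour left out; 0.44 with array weights, 0.14 without labelled KO replicate 1, 0.36 without labelled WT replicate 2), Alox12b (-0.49 to 0.13 with each tumour left out; 0.13 without labelled KO replicate 2, 0.04 without labelled WT replicate 1, 0.54 with slide row as a block), Aloxe3 (-0.43 to 0.01, the highest without labelled KO replicate 2) and Ptgs1 (0.23 with slide row). Among the other pathway genes, Ptger4 (-0.32 to 0.31 with each tumour left out) turned to 0.11 with slide column, 0.31 without labelled KO replicate 1 and 0.16 without labelled WT replicate 1. Ptgfr (-0.14 to 0.15) turned to 0.12 with normexp, 0.45 with slide row, 0.15 without labelled KO replicate 3, 0.10 without labelled WT replicate 1 and 0.03 without labelled WT replicate 2. Tbxa2r (-0.63 to 0.07) turned to 0.03 with normexp, 0.56 with slide row and 0.07 without labelled KO replicate 3. Mcpt4 (-0.57 to 0.17) turned to 0.04 with array weights, 0.06 without labelled KO replicate 1 and 0.17 without labelled WT replicate 2. Mcpt8 passed the adjusted threshold without labelled WT replicate 2 (2.20, adjusted p = 0.0376, limma), and its adjusted p ran from 0.0376 to 0.545 over its alternatives (limma). That tumour, at -0.27, was the labelled WT tumour nearest the labelled KO values, so leaving it out could only widen the difference. Mcpt8 was also chosen after its values were seen. The 32 features past the adjusted threshold became 10 with normexp and 18 with no filter (limma). They became 5 when probes had to be above background on each of the 6, 89 with array weights and 21 with slide column. With each tumour left out they became 10 to 120, lowest without labelled KO replicate 3 and highest without labelled WT replicate 2. The 2610 at an unadjusted p under 0.05 became 5282 with no filter, which tests more features, and 1621 to 3556 with each tumour left out. The 4 members at that threshold became 2 with slide column and 1 to 4 with each tumour left out. Slide row, which rests on labelled KO tumour 1 against labelled WT tumour 3, moved 3 list medians. They became 0.68 for acylceramide genes, 0.67 for phospholipases A2 and 0.51 for prostanoid receptors. The acylceramide median also moved, to -0.03 with array weights, 0.00 without labelled KO replicate 1, 0.38 without labelled WT replicate 1 and -0.02 without labelled WT replicate 3. The cause was not tested. Same-numbered tumours deviated together at r = 0.0645, 0.257 and 0.143 across genes. Each tumour was most like its own number except labelled WT tumour 1, which was more like labelled KO tumour 3 (r = 0.0968). These r do not settle whether the numbers mark pairs, and the numbers were not taken as pairs. With the replicate number as a block, 5 features passed the adjusted threshold and 3 members had an unadjusted p under 0.05 (limma). Signal near background limits Alox15, Ptgdr, Ptgds, Tbxa2r, Ptgfr and the dimmer Alox12 probe.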
